A study of Mus musculus with 16 samples.

Results

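The comparison described here set 4TO7 cells that stably overexpressed Cluster 1 of the miR-200 microRNAs directly against 4TO7 cells that overexpressed E-cadherin (group CDH1), without the vector controls. It asks which genes separate cells given the microRNAs from cells given the adhesion protein alone. The members were chosen by sample title: repeats A and B of Cluster 1 and repeats A and B of CDH1, which are 4 of the 16 arrays of the series. 4TO7 is a mouse mammary carcinoma line, and all groups were kept in DMEM with 10% serum and antibiotics. Both groups carried a Puro vector, as did their controls, the Puro vector for Cluster 1 and the Puro vector for CDH1 (2 arrays each). On each array of these groups 175 ng of total RNA from the cells was labelled with Cy5 and hybridised against a Cy3-labelled reference RNA pooled from 11 mouse cell lines. The series' design text calls the 2 repeats of a group biological replicates. The labels name neither the miR-200 genes that make up Cluster 1 nor the species of the introduced CDH1 sequence, and neither do they say whether a subline was a clone or a pool.

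MicroRNAs of the miR-200 family recognise their targets through a short seed at the 5′ end of each microRNA, and the best known targets are Zeb1 and Zeb2, repressors that bind E-box sites in the promoters of E-cadherin and other epithelial genes. E-cadherin is the calcium-dependent adhesion receptor of adherens junctions, which holds beta-catenin and its relatives at the membrane. In carcinoma cells the family is known for favouring an epithelial over a mesenchymal state. The 5 mature family members are shown because their seeds divide them into 2 sets that are expected to share targets. The seed, bases 2 to 8 from the 5′ end, is in capitals. The sequences and positions are those of RefSeq, build GRCm38.p6.
mmu-miR-200b-3p: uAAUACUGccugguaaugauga
mmu-miR-429-3p: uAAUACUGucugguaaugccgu
mmu-miR-200c-3p: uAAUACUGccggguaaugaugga
mmu-miR-200a-3p: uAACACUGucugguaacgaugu
mmu-miR-141-3p: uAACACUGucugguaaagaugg
The first 3 share the seed AAUACUG and the last 2 the seed AACACUG, which differ at 1 position. miR-200b, miR-200a and miR-429 lie together on chromosome 4 (chr4:156055685-156055706, chr4:156054911-156054932 and chr4:156053916-156053937, minus strand). miR-200c and miR-141 lie together on chromosome 6 (chr6:124718324-124718346 and chr6:124717917-124717938, minus strand).

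Values are log2 ratios of sample over reference RNA, so 0 is the level of the reference and a difference of 1 is a doubling. Differences are given as Cluster 1 minus CDH1 with the standard error (SE) of a limma fit over all 16 arrays, and a gene is called where its Benjamini-Hochberg adjusted p over all genes tested was under 0.05. Between repeats A and B the median absolute difference over genes was 0.0878 in Cluster 1 and 0.0851 in CDH1. Cluster 1 with its control lay on 1 slide and CDH1 with its control on another, so slide and group cannot be told apart in the direct difference. For that reason a second estimate was made with slide as a block, that is (Cluster 1 minus its Puro vector) minus (CDH1 minus its Puro vector). The direct and the blocked difference share the Cluster 1 and CDH1 arrays. A gene named as called directly was also called in the same direction with slide as a block, unless it is said not to be. Values of other probes of a gene are those of probes that passed the same background filter.

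The 2 Puro vector controls, alike by their labels, were not alike in measured ratios, and the arrays of the Puro vector for CDH1 stood apart. On these arrays 47.9% and 29.9% of probes were well above background, against 55.6% and 57.6% in the Puro vector for Cluster 1. The 29.9%, of repeat B, was the lowest share of the 16 arrays. Repeats A and B correlated at 0.938 in the Puro vector for CDH1, against 0.96 in the Puro vector for Cluster 1. The part of array quality in this difference was not tested. CDH1 arrays correlated with the Puro vector for Cluster 1, on the other slide, at 0.932 to 0.94 over genes, and with their own Puro vector at 0.863 to 0.874. Cluster 1 arrays correlated with CDH1 arrays at 0.858 to 0.88. Between the 2 Puro vector groups 1910 of 18874 genes were called, 10.1%, and the count changed to between 1097 and 1799 when any 1 of the 8 arrays of the 4 groups was left out. CDH1 is therefore also set against the Puro vector for Cluster 1, a comparison added after these correlations had been seen. It crosses slides and called 455 of 18873 genes, 2.41%, against 14.6% for CDH1 minus its own Puro vector and 8.34% for Cluster 1 minus its own. Leaving out any 1 of the 4 arrays that each of these comparisons uses gave 120 to 193 genes for the first, 1548 to 2067 for the second and 680 to 991 for the last. CDH1 was called higher for 1.26% of genes and lower for 1.16% against the Puro vector for Cluster 1. Against its own Puro vector these shares were 7.74% and 6.84%. The same reference RNA differed at least 2-fold between the slides for 68 of 17442 genes, 0.39%, and these are named where they touch a result. That count followed background correction with an offset of 50 and quantile normalisation of the reference channel between the 8 arrays. The offset shrinks differences between dim signals, so the count can miss genes. Genes under that limit can still differ in reference, such as Xlr4b (-0.927 on the log2 scale) and Nid1 (-0.901). For Xlr4b the net reference signals, given below, lay further apart than this value.

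Cluster 1 cells had higher levels of 19 of 25 cholesterol synthesis genes than CDH1 cells, of 7 of 18 adherens junction genes, of 7 of 18 surface and secreted genes and of 3 of 11 keratins, and lower levels of 15 of 36 cell cycle genes. Of 18872 genes tested, 2953 were called, 15.6%: 1605 were higher in Cluster 1 (8.5%) and 1348 lower (7.14%). A difference of at least 2-fold was called for 93 higher and 22 lower genes. With slide as a block 3243 of 18860 genes were called, 17.2%, and 2056 genes, 10.9%, were called in the same direction both ways. The share of higher genes among those called directly was 54.4%, but 36.8% when arrays were centred on their medians without loess. The number called also depended on single arrays, with 1644 genes without Cluster 1 repeat A and 1682 without CDH1 repeat B, and it was 894 when spots marked by the scanner software were kept.

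E-cadherin itself was measured by a probe printed 10 times on each array (chr8:105268557-105268616, build mm7). Its log2 ratio was 1.21 and 1.29 in Cluster 1, against 0.57 and 0.77 in CDH1, and it lay between -0.01 and 0.09 on the 4 Puro vector arrays. Both groups thus lay above all controls and did not overlap with each other. The direct difference was 0.58 ± 0.126 (SE, n = 2 each, adjusted p = 0.00749), or 0.60 with slide as a block (adjusted p = 0.0368). Net sample signals, before normalisation, were 223 and 237 in Cluster 1, against 67.2 and 92.8 in CDH1. CDH1 minus its own Puro vector was 0.61 (adjusted p = 0.00552), though on those control arrays none of the 10 spots was well above background. The reference channel was dim: all 10 reference spots were well above background on each Cluster 1 array, against 0 and 1 of 10 on the CDH1 arrays. With the scanner software's processed signals in place of background-corrected means the difference was -0.50 (adjusted p = 0.217), and in the sample channel alone it was 1.86. The call was lost without Cluster 1 repeat B (0.54, adjusted p = 0.0572) and without CDH1 repeat A (0.48, adjusted p = 0.0745), so the order of the 2 groups in Cdh1 ratio depends on the processing. Nothing in the labels says whether this mouse probe detects the introduced CDH1 sequence.

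**Figure D1:**
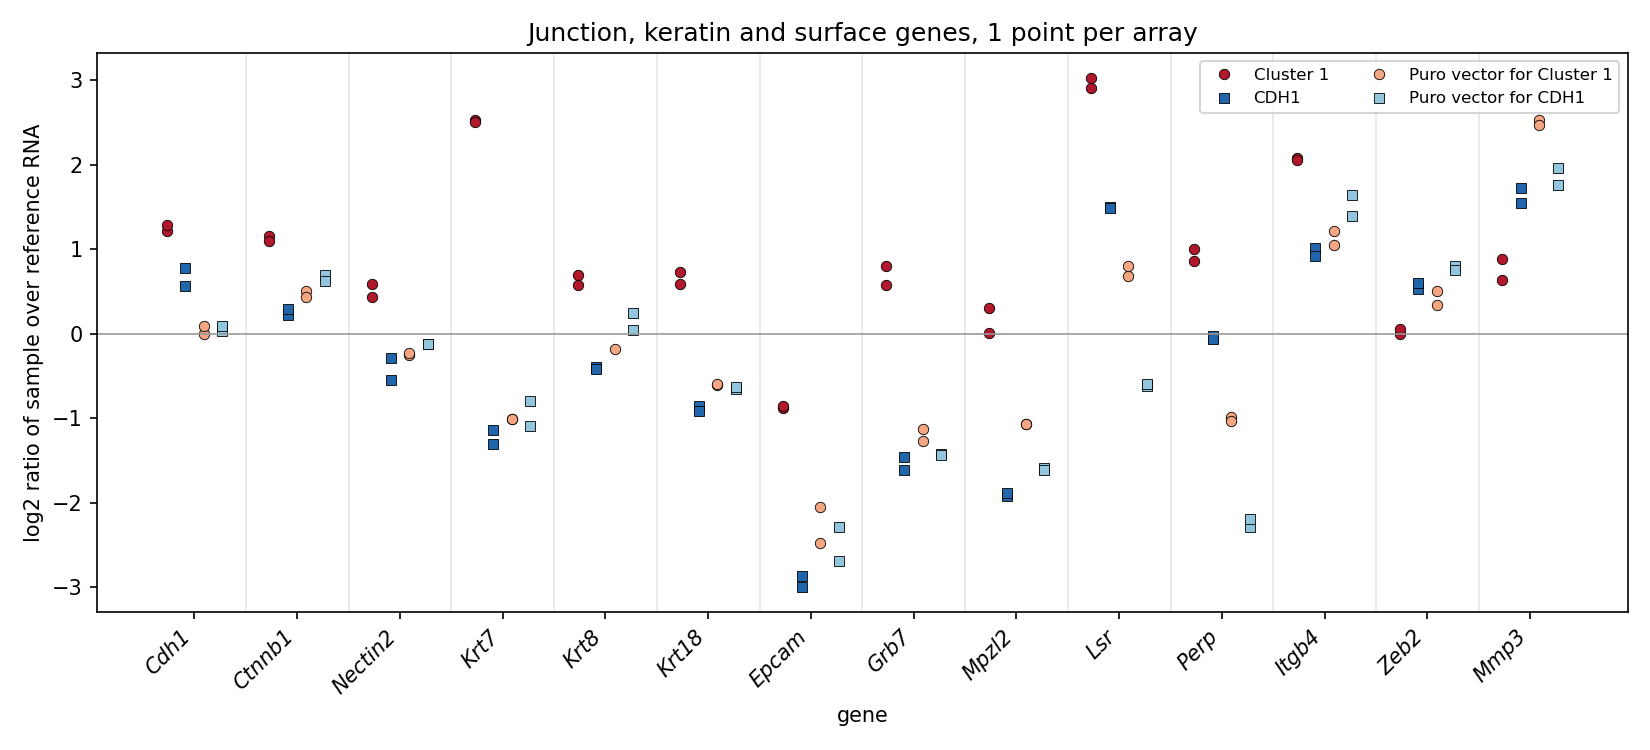
log2 ratio of sample over reference RNA (vertical axis) for 14 genes (horizontal axis), with 1 point for each array of Cluster 1, CDH1 and their 2 Puro vector groups. Krt7, Krt18, Epcam, Grb7 and Mpzl2 stand higher in Cluster 1 than in the other 3 groups, while Lsr and Perp are also higher in CDH1 than in both controls.

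Among adherens junction genes, 7 of 18 tested were higher in Cluster 1 and 1 was lower, with a median difference of 0.24 against 0.00315 over all genes. Of the 7, Cdh1, Ctnnb1, Nectin2 and Lima1 were also called with slide as a block, while Ctnna1, Jup and Nectin1 were not. Ctnnb1, beta-catenin, had ratios of 1.15 and 1.09 in Cluster 1, against 0.22 and 0.29 in CDH1. The difference was 0.87 ± 0.0886 (adjusted p = 4.16e-05), and its other probes gave 0.76 and 0.52. Nectin2, an adhesion receptor of the same junctions, had 0.59 and 0.44 in Cluster 1, against -0.28 and -0.55 in CDH1 (difference 0.93, adjusted p = 0.000268), but a second probe gave -0.03. The smaller differences of Ctnna1 (0.27, with 0.09 by a second probe) and Jup (0.30), alpha-catenin and plakoglobin, lost their calls when any 1 of the 4 arrays was left out, with adjusted p of 0.0598 to 0.266 and 0.0714 to 0.14. Lmo7, an actin-linked junction protein, was lower in Cluster 1 directly (-0.65, adjusted p = 0.000795) and not called with slide as a block (-0.21, adjusted p = 0.36). Its 2 other probes gave 0.14 and 0.01. Ctnnd1, p120-catenin, differed by -0.04 (adjusted p = 0.867), on a probe well above background on only 1 of the 2 Cluster 1 arrays. A second Ctnnd1 probe, well above background on all 4 arrays, gave -0.05. The Jup probe was well above background on only 1 of the 2 CDH1 arrays. The list held 3 or 4 higher members when any 1 of the 4 arrays was left out.

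Keratins gave the largest difference of any named gene. Krt7, a keratin of simple epithelia (probe at chr15:101413898-101413957, mm7), had ratios of 2.52 and 2.50 in Cluster 1, against -1.15 and -1.30 in CDH1. The 2 Cluster 1 arrays stood alone, since the 4 Puro vector arrays lay between -1.10 and -0.80. The difference was 3.74 ± 0.101 (adjusted p = 4.43e-09), 13.3-fold, and 3.80 with slide as a block. A second probe gave 3.39. Net sample signals were 6950 and 7790 in Cluster 1, against 93.8 and 118 in CDH1. The reference channel of Krt7 was itself higher on the Cluster 1 slide, by 1.16 on the log2 scale, and the sample channel alone gave a difference above the ratio, 6.07.

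Krt18 and Krt8, which pair in the filaments of simple epithelia, moved with Krt7. Krt18 had 0.73 and 0.58 in Cluster 1, against -0.85 and -0.91 in CDH1 (difference 1.54 ± 0.0821, adjusted p = 3.34e-07, 2.91-fold, and 1.50 with slide as a block). Krt8 had 0.69 and 0.57, against -0.39 and -0.42 in CDH1 (1.04, adjusted p = 4.74e-05, with 0.86 by a second probe). For Krt8 the value of 1 array of the Puro vector for Cluster 1 was missing. These 3 were the called members of 11 keratins tested, all higher in Cluster 1 and all called with slide as a block. In CDH1 cells set against the Puro vector for Cluster 1 none of the 11 keratins was called, with Krt7 at -0.21, Krt18 at -0.28 and Krt8 at -0.23. That comparison called only 2.41% of all genes, so few calls among 11 genes would be looked for.

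Of 18 epithelial surface and secreted genes 7 were higher in Cluster 1 and none was lower (median 0.30), and 5 of the 7 were also called with slide as a block. Grb7 was counted in this list, though it is an intracellular adaptor of receptor tyrosine kinases. It had 0.80 and 0.57 in Cluster 1, against -1.62 and -1.46 in CDH1. The difference was 2.22 ± 0.17 (adjusted p = 4.37e-06), 4.67-fold, and 1.99 with slide as a block. Epcam, an epithelial adhesion molecule, had -0.88 and -0.85 in Cluster 1, against -2.86 and -2.99 in CDH1, below the reference RNA in both. It differed by 2.06 ± 0.166 (adjusted p = 6.62e-06) and by 1.84 with slide as a block. With marked spots kept the calls of Grb7 and Epcam were lost (adjusted p = 0.0592 and 0.0501), at differences of 1.99 and 2.30. Mpzl2, a homophilic adhesion protein, had 0.31 and 0.01 in Cluster 1, against -1.92 and -1.88 in CDH1 (difference 2.06, adjusted p = 4.15e-07, and 1.52 with slide as a block), though a second probe gave 0.24. Msln (0.93) and Tspan1 (0.72) were the other members called both ways.

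Tight and tricellular junction genes were higher in Cluster 1 for 5 of 15 tested, with none lower and a median of 0.23. Lsr, the lipolysis-stimulated lipoprotein receptor, which marks tricellular junctions, had 2.91 and 3.02 in Cluster 1, against 1.50 and 1.48 in CDH1. It averaged lower in both controls, at 0.69 and 0.80 in the Puro vector for Cluster 1 and -0.62 and -0.59 in the Puro vector for CDH1. The direct difference was 1.47 ± 0.121 (adjusted p = 7.28e-06), and with slide as a block it was 0.12 (adjusted p = 0.734). On its own slide Lsr was higher than its Puro vector by 2.22 in Cluster 1 and by 2.10 in CDH1. Cgnl1, a cytoplasmic plaque protein, differed by 0.72 directly and 1.60 with slide as a block. Of its other probes 1 gave 0.61 and 1.62, and 1 gave -0.15 and -0.17. Tjp3, the scaffold ZO-3, differed by 0.82, a call lost without Cluster 1 repeat A (0.75, adjusted p = 0.0785) and without CDH1 repeat B (0.67, adjusted p = 0.0898). Without either of these arrays the list held 3 higher members.

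Desmosome genes showed the same dependence on the controls. Directly 5 of 10 tested were higher in Cluster 1 (median 0.34), and with slide as a block the median was 0.02. Perp, a desmosomal membrane protein, had 0.86 and 1.00 in Cluster 1, against -0.02 and -0.06 in CDH1. It had -0.99 and -1.04 in the Puro vector for Cluster 1, and -2.29 and -2.20 in the Puro vector for CDH1. The direct difference was 0.97 ± 0.0696 (adjusted p = 2.78e-06), and the blocked one -0.26 (adjusted p = 0.0994). Perp was thus higher than either control in both groups, by 1.94 in Cluster 1 and by 2.20 in CDH1 on their own slides. Evpl, envoplakin, was called both ways (0.62 and 0.85), with 0.12 and 0.10 by a second probe. With marked spots kept none of the 10 desmosome genes was called.

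Of 11 hemidesmosome and laminin-332 genes, which anchor cells on the basal side, 2 were higher and 1 was lower directly, at a median of -0.00717. With slide as a block 4 were higher and none was lower, at a median of 0.27. The Puro vector for Cluster 1 was lower than the Puro vector for CDH1 for 6 of them, against 5.2% of all genes. Itgb4, integrin beta 4, had 2.07 and 2.06 in Cluster 1, against 1.01 and 0.92 in CDH1 (difference 1.10, adjusted p = 1.97e-05, and 1.48 with slide as a block). Of its 2 other probes 1 gave 1.08 and the other 0.07. Col7a1, the collagen of anchoring fibrils, differed by 0.91 (1.65 with slide as a block), while Lama5, a laminin chain, was lower by direct comparison (-0.61) and not called with slide as a block (-0.06). Apical polarity and trafficking genes gave 1 call in 18, Dlg1 at -0.44, a call lost without Cluster 1 repeat A (-0.32, adjusted p = 0.0735) and with slide as a block (-0.37, adjusted p = 0.0705). Its other probes gave 0.13 and -0.03. Epithelial transcription and splicing regulators gave 1 call in 13, Klf5 at -0.29, lost when any 1 of the 4 arrays was left out and with slide as a block (adjusted p = 0.0561). Esrp1, a splicing regulator, was not well above background in either group, and Crb3, an apical polarity protein, not in CDH1.

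**Figure D2:**
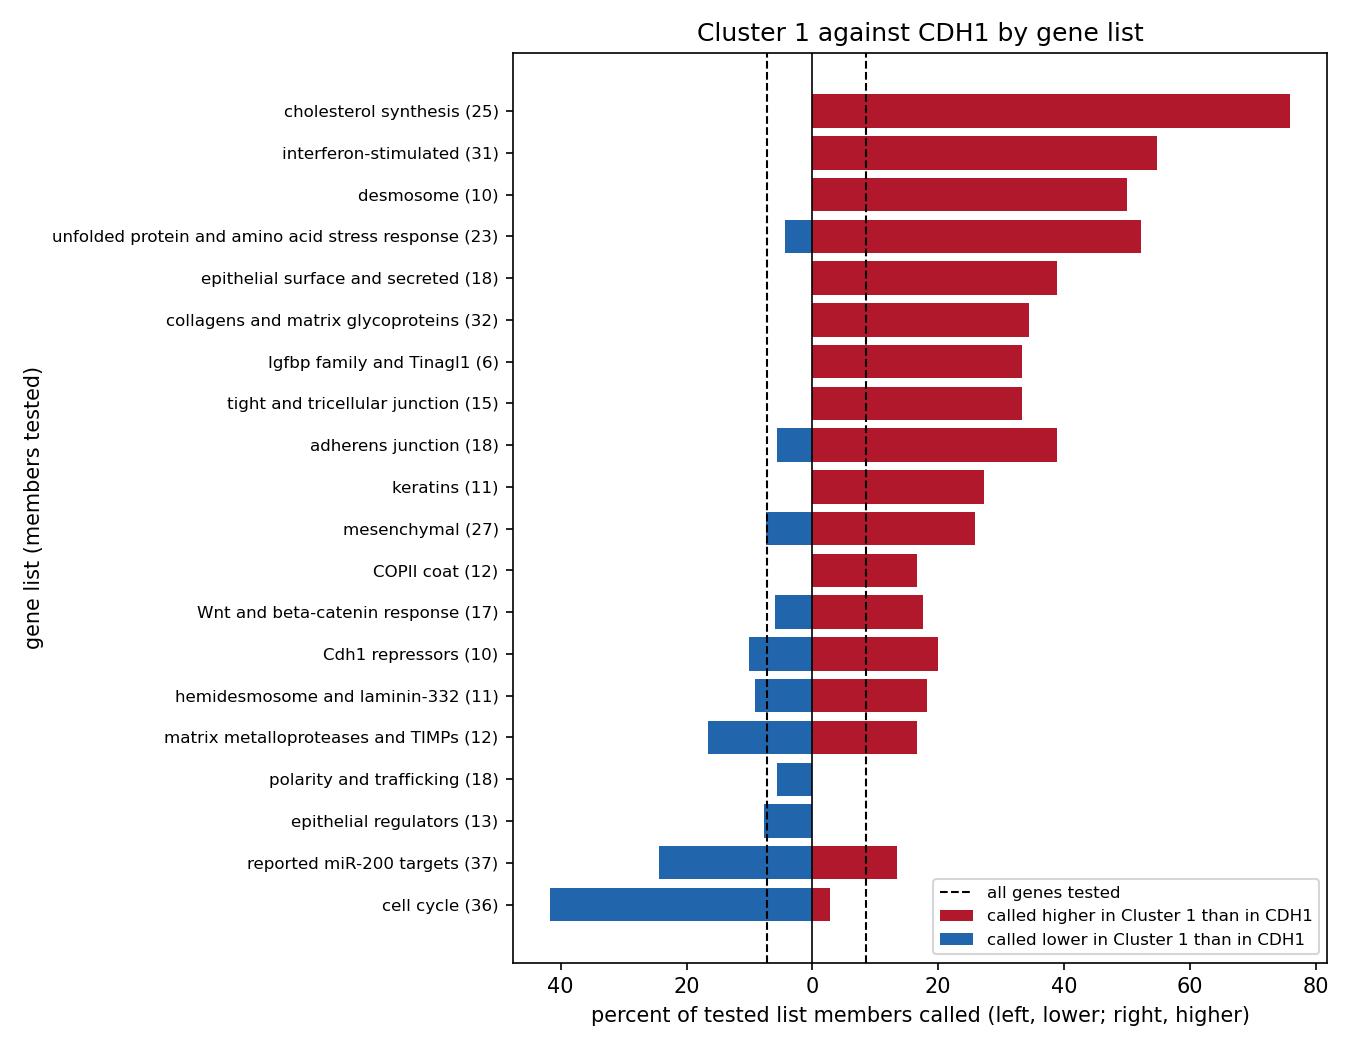
Percent of the tested members of each of 20 gene lists (rows) called higher (right) or lower (left) in Cluster 1 than in CDH1, with the share over all genes tested as dashed lines at 8.5% higher and 7.14% lower. Cholesterol synthesis lies at 19 of 25 higher and cell cycle at 15 of 36 lower, while polarity genes and epithelial regulators lie below or near the background.

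The promoters of Krt7, Epcam and Lsr, 250 bases up to the transcription start from RefSeq (GRCm38.p6), are shown because Krt7 and Lsr had the highest differences of the keratin and tight junction lists and Epcam the next after Grb7 in the surface list, and because each holds the E-box word to which Zeb factors bind. Capitals mark CACCTG on either strand, read as CACCTG or CAGGTG.
Krt7: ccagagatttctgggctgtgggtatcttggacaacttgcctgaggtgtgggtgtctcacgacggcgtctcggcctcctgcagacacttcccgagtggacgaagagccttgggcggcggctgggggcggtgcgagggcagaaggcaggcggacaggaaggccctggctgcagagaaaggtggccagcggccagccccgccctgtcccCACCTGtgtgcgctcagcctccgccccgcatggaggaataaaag
Epcam: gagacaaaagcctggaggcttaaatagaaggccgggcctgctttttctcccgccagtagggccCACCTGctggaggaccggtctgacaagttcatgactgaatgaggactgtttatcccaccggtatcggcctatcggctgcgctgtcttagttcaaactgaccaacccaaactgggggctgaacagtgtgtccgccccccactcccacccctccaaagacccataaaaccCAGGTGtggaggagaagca
Lsr: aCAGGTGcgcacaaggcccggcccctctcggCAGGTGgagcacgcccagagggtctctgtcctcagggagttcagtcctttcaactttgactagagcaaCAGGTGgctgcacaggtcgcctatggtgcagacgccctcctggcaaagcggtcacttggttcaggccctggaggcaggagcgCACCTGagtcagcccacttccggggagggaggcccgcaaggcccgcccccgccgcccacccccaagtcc
The Krt7 window (chr15:101412153-101412402, plus strand) holds the word at -44 from the start, the Epcam window (chr17:87635729-87635978, plus strand) at -187 and -19, and the Lsr window (chr7:30973470-30973719, minus strand) at -249, -219, -151 and -69. Over all 12232 tested genes with a promoter, 19.1% held it. The share was 5 of 7 for keratins, 7 of 11 for surface and secreted genes, and 7 of 12 for tight junction genes, but also 4 of 6 for hemidesmosome and laminin-332 genes and 6 of 13 for polarity and trafficking genes, of which 2 and 0 were higher. It was 3 of 14 for adherens junction genes and 0 of 17 for mesenchymal genes, and the highest share of any other list was 29.2%. Because the shown promoters were chosen for holding the word, they cannot show whether it goes with higher levels. It was also found for Areg (-20), Pakap (-129), Lama5 (-246 and -186) and Timp2 (-107), all lower by direct comparison. Timp2, a protease inhibitor, and Lama5 were not called with slide as a block. Among higher named genes, Krt18, Krt8, Nectin2, Tjp3, Psmb9 and Xbp1 also held it. Crb3 and Snai1, not called, held it too. Only genes matched by symbol to the RefSeq table are counted, and a match is a word in the window, not a measured site.

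Of 10 repressors of Cdh1 tested, 30% were called directly, against 15.6% of all genes. Foxc2 and Tcf4 were higher and Zeb2 was lower, and none was called with slide as a block. Without Cluster 1 repeat A or without CDH1 repeat B, Zeb2 alone was called. Zeb2 had -0.0042 and 0.06 in Cluster 1, against 0.53 and 0.60 in CDH1, with 0.34 and 0.50 in the Puro vector for Cluster 1. The direct difference was -0.54 ± 0.0741 (adjusted p = 0.00037), and the blocked one -0.18 (adjusted p = 0.303). The other Zeb2 probe well above background on all 4 arrays gave -0.61 directly and -1.12 with slide as a block, so the probes differ in the blocked value. A further probe, near background, gave -0.10. Zeb1 had -1.65 and -1.13 in Cluster 1, against -1.50 and -1.92 in CDH1, so the groups overlapped (difference 0.32, adjusted p = 0.417). Snai1 differed by -0.06 (adjusted p = 0.782). Snai2 and Twist1 were not well above background in Cluster 1. The list median was 0.30, but -0.205 in the sample channel alone.

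Reported miR-200 targets gave 5 higher and 9 lower calls of 37, with a median of -0.0257. Lower members included Flt1, a VEGF receptor (-0.77, adjusted p = 1.24e-05, and -1.26 with slide as a block), whose 2 other probes gave 0.29 and -0.15. They also included the phosphatase gene Ppm1f (-0.75), the actin regulator Fhod1 (-0.53) and Ets1 (-0.48), a transcription factor, each called with slide as a block too. Higher members included Ctnnb1, described above, and Rnd3, an atypical small GTPase that opposes contractility, at 0.93 (adjusted p = 0.000106), with 0.72 and 0.18 by other probes. The reference channel of Rnd3 was lower on the Cluster 1 slide by 0.752, and in the sample channel alone Rnd3 differed by 0.00012 (adjusted p = 0.999). Sec23a, a COPII coat gene reported as a miR-200 target, was not called (0.12, adjusted p = 0.685), but this value is no measured fold. Its probe was well above background on only 1 of the 2 Cluster 1 arrays, and its reference channel on neither. In the sample channel alone Sec23a was lower in Cluster 1 (-0.90, adjusted p = 0.000616). Of the 12 COPII genes Sec16a (0.58, with 0.24 by a second probe) and Sec24a (0.30) were called directly, 16.7%, near the 15.6% of all genes. Sec24a was not called with slide as a block (-0.02). Without any 1 of the 4 arrays 5 or 6 of the reported targets were lower. The COPII calls depended on single arrays: without CDH1 repeat B they had adjusted p of 0.0603 and 0.114.

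Mesenchymal and matrix genes were more often higher than lower in Cluster 1 by ratio, but not in the sample channel alone. Of 27 mesenchymal genes 7 were higher and 2 lower (median 0.20), and of 32 collagens and matrix glycoproteins 11 were higher and none lower (median 0.32). In the sample channel alone these medians were -0.23 and -0.12. With slide as a block 8 mesenchymal genes were higher and 2 lower, and 9 matrix genes were higher and 1 lower (medians 0.59 and 0.57). CDH1 was lower than its own Puro vector for 8 of the mesenchymal and 11 of the matrix genes, and lower than the Puro vector for Cluster 1 for 2 and 1. The list medians were -0.368 and -0.356 against its own, and -0.109 and -0.155 against the Puro vector for Cluster 1. Of all genes, these comparisons called 6.84% and 1.16% lower. Tpm2, a tropomyosin, had -1.19 and -1.27 in Cluster 1, against -2.05 and -2.26 in CDH1 (difference 0.92, adjusted p = 1.95e-05), with 0.94 by a second probe. Fn1, fibronectin, differed by 0.36 directly, a call lost without any 1 of the 4 arrays (adjusted p = 0.0927 to 0.154), and by 1.26 with slide as a block. Its other probes gave 0.27 and -0.02. Vim, the mesenchymal intermediate filament vimentin, had -1.01 and -1.11 in Cluster 1, against -1.12 and -1.09 in CDH1, and differed by 0.05 (adjusted p = 0.898). Cdh2, N-cadherin, was not tested. Without Cluster 1 repeat A or without CDH1 repeat B the matrix list held 6 higher members, and without Cluster 1 repeat A the mesenchymal list held 4.

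Of 12 matrix proteases and their inhibitors 2 were higher and 2 lower in Cluster 1, and Mmp3, stromelysin 1, was among the lower ones. It had 0.64 and 0.88 in Cluster 1, against 1.54 and 1.73 in CDH1, with 2.53 and 2.47 in the Puro vector for Cluster 1 and 1.96 and 1.76 in the Puro vector for CDH1. The difference was -0.87 ± 0.0995 (adjusted p = 9.46e-05) and -1.51 with slide as a block. Igfbp6 and Igfbp7, insulin-like growth factor binding proteins, were higher by 0.43 and 0.31 (1.69 and 0.75 with slide as a block), calls lost without Cluster 1 repeat A (adjusted p = 0.0792 and 0.122) among others. Tinagl1, a matrix protein that is often grouped with them as a secreted suppressor, was not called directly (-0.28, adjusted p = 0.0607) and was called with slide as a block (-0.56, adjusted p = 0.00909), with -0.50 and -0.95 by a second probe.

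Cholesterol synthesis was the list with the highest share of calls. Of 25 genes, 19 were higher in Cluster 1 and none was lower, both directly (median 0.73) and with slide as a block (median 0.75), against the 10.9% of all genes called both ways. Leaving out any 1 of the 4 arrays left 18 or 19 higher. Tm7sf2, a sterol reductase, had 1.18 and 1.24 in Cluster 1, against -0.20 and -0.43 in CDH1 (difference 1.52 ± 0.0935, adjusted p = 7.35e-07). Hmgcs1, which makes the precursor of mevalonate, had -0.16 and -0.02 in Cluster 1, against -1.60 and -1.60 in CDH1 (difference 1.51, adjusted p = 4.58e-07). For both genes the 2 groups did not overlap. The other Hmgcs1 probes, not well above background on both arrays of either group, gave 0.23 and -0.05. Srebf2, a transcription factor that switches these genes on, had -0.47 and -0.56 in Cluster 1, against -1.68 and -1.67 in CDH1 (difference 1.16, adjusted p = 6.94e-07). The difference had parts in both groups: Cluster 1 was higher than its own Puro vector for 16 of the 25 (median 0.37), and CDH1 was lower than the Puro vector for Cluster 1 for 14 and higher for 1 (median -0.41), and lower than its own Puro vector for 19. The first 2 of these comparisons share the arrays of the Puro vector for Cluster 1. Of all genes, Cluster 1 was higher than its own Puro vector for 4.89%. CDH1 was lower than the Puro vector for Cluster 1 for 1.16% and higher for 1.26%, and lower than its own for 6.84%. Scd2, a fatty acid desaturase, had -0.44 and -0.45 in Cluster 1, against -2.23 and -2.21 in CDH1, a difference of 1.77.

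Interferon-stimulated genes were higher in Cluster 1 for 17 of 31, with none lower (median 0.40), and 16 of the 17 were also called with slide as a block. Psmb9 and Psmb8, immunoproteasome subunits, both differed by 1.20 (2.07 and 2.55 with slide as a block), and Parp14 by 1.20 (2.01) and Rtp4 by 1.15 (2.27). Psmb8 had 0.53 and 0.51 in Cluster 1, against -0.72 and -0.64 in CDH1, with -0.53 on the single measured array of the Puro vector for Cluster 1 and 0.77 and 0.87 in the Puro vector for CDH1. Cluster 1 was higher than its own Puro vector for 14 of the 31 (median 0.39). CDH1 was higher than the Puro vector for Cluster 1 for 2 and lower for none (median 0.04), and lower than its own Puro vector for 12. The Puro vector for Cluster 1 was lower than the Puro vector for CDH1 for 16, against 5.2% of all genes. Of all genes, Cluster 1 was higher than its own Puro vector for 4.89%. CDH1 was higher than the Puro vector for Cluster 1 for 1.26%, and lower than its own for 6.84%. Without Cluster 1 repeat A 11 members were higher, and with marked spots kept 8 were. The core of interferon response elements, GAAA followed by GAAA with any 2 bases between, searched on either strand, was in the promoter window of 11 of 24 of these genes and of 3.16% of all. The core of sterol elements, TCACNCCAC with N any base, was searched likewise. It was in the window of 1 of 17 cholesterol synthesis genes and of 1.23% of all.

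**Figure D3:**
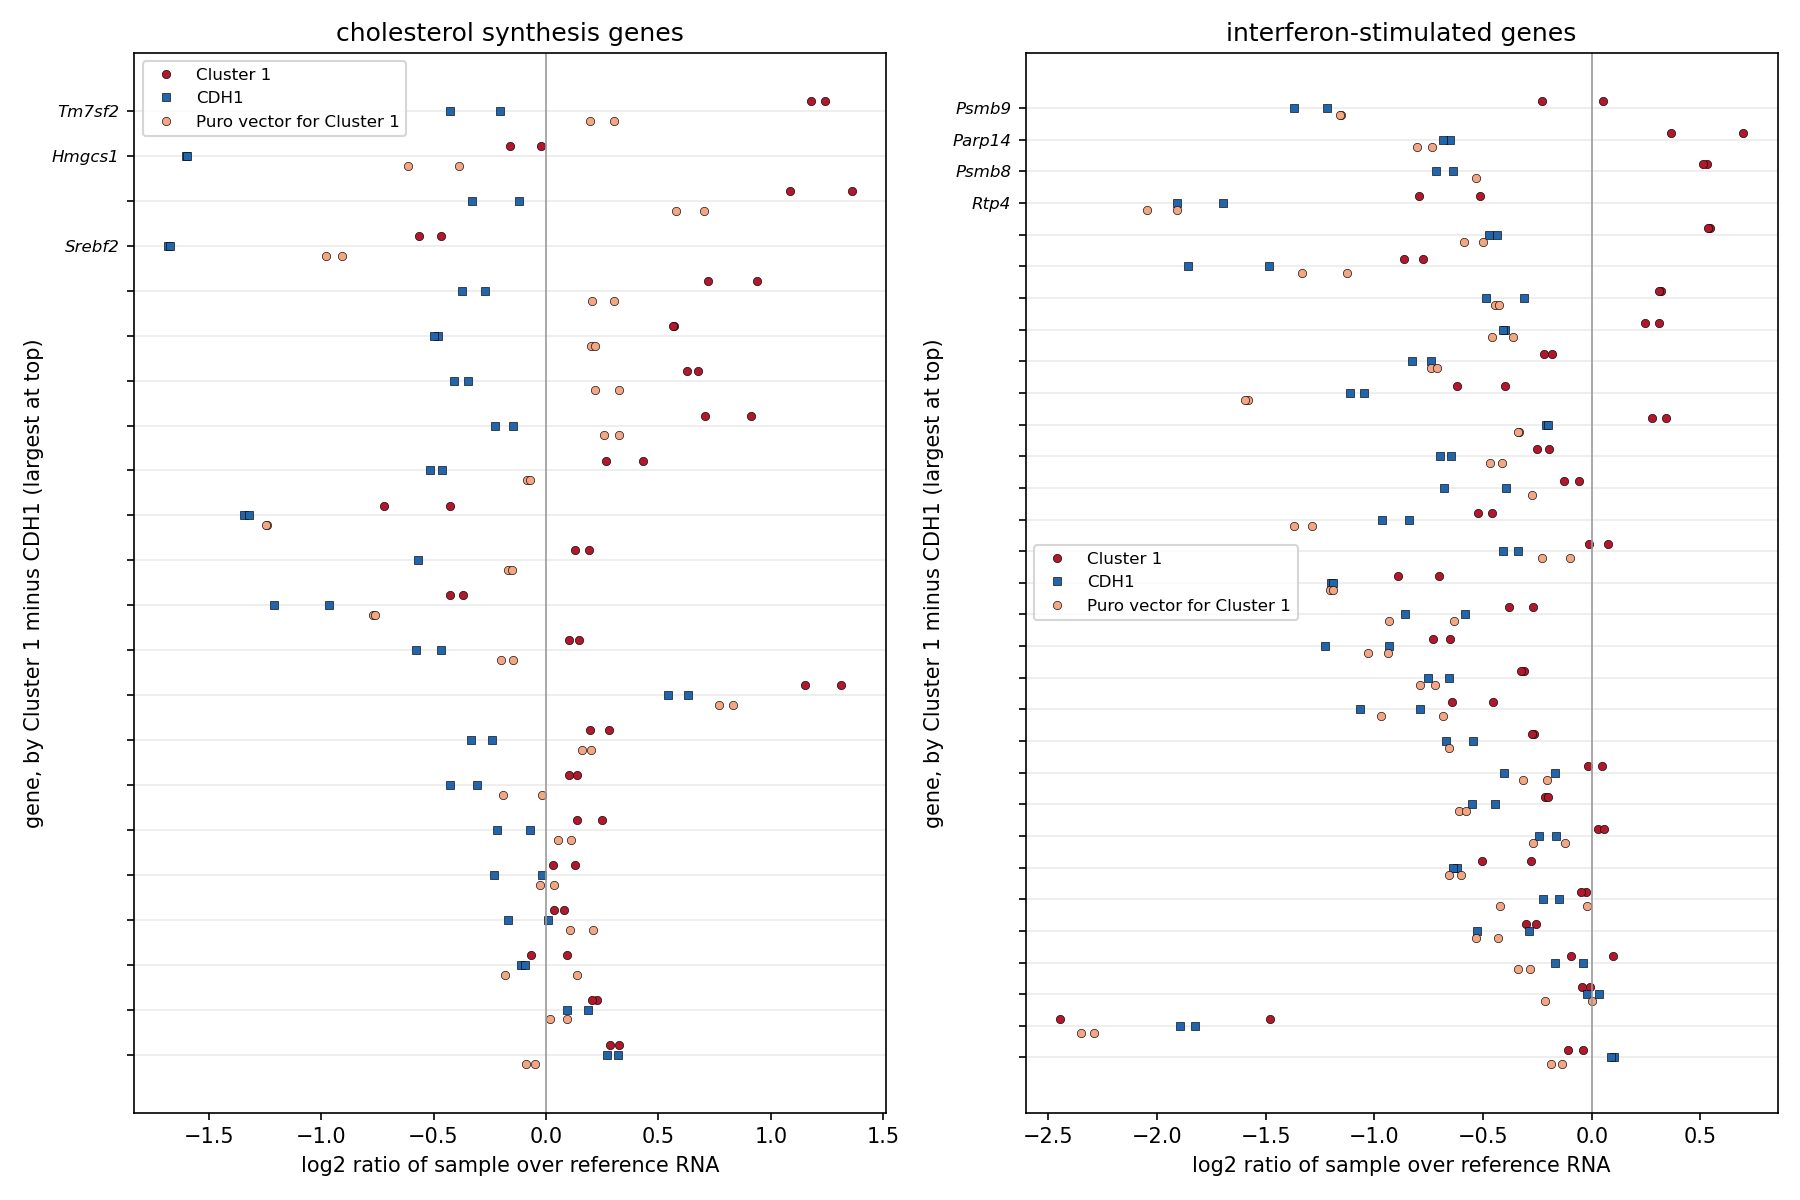
log2 ratio of sample over reference RNA (horizontal axis) for 22 cholesterol synthesis genes (left) and 31 interferon-stimulated genes (right), with names for those given in the text and 1 point for each array of Cluster 1, CDH1 and the Puro vector for Cluster 1. CDH1 lies below that control for most cholesterol genes (14 of the list of 25 called) and beside it for most interferon-stimulated genes (2 of 31 called), and Cluster 1 was called above it for 16 of the list of 25 and 14 of 31.

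Unfolded protein and amino acid stress response genes were higher in Cluster 1 for 12 of 23 and lower for 1 (median 0.42), and the 12 were called with slide as a block too. Xbp1, a transcription factor of that response, had -0.19 and -0.39 in Cluster 1, against -1.09 and -1.16 in CDH1 (difference 0.84, adjusted p = 0.000532). Trib3, a pseudokinase induced by Atf4, differed by 0.83 (1.59 with slide as a block, and 0.40 directly by a second probe), and Hspa5, the endoplasmic reticulum chaperone BiP, by 0.48. Cluster 1 was higher than its own Puro vector for 7 of the 23, and CDH1 was lower than its own for 15 and lower than the Puro vector for Cluster 1 for 1. The list medians of these CDH1 comparisons were -0.387 and -0.16. Of all genes, they called 6.84% and 1.16% lower, and Cluster 1 was higher than its own Puro vector for 4.89%. In the sample channel alone 8 of the 23 were higher in Cluster 1 than in CDH1 and 5 lower.

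Cell cycle genes ran the other way, with 15 of 36 lower in Cluster 1 and 1, Bub1b, higher (median -0.22), and 12 of the 15 were also called with slide as a block. Ccne2, cyclin E2, had 0.24 and 0.36 in Cluster 1, against 0.82 and 1.04 in CDH1 (difference -0.63, adjusted p = 0.000638, and -1.21 with slide as a block). Rrm2, a ribonucleotide reductase subunit, differed by -0.56, and Mcm5, part of the replicative helicase, by -0.54 (-1.03 with slide as a block). Cluster 1 was lower than its own Puro vector for 7 of the 36, and CDH1 was higher than its own for 15 and higher than the Puro vector for Cluster 1 for 1. The list medians of these CDH1 comparisons were 0.223 and 0.125. Of all genes, they called 7.74% and 1.26% higher, and Cluster 1 was lower than its own Puro vector for 3.44%. The Puro vector for Cluster 1 was higher than the Puro vector for CDH1 for 7, against 4.92% of all genes. Without CDH1 repeat B 10 members were lower, and with marked spots kept 7 were.

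The genes furthest apart by both estimates and higher in Cluster 1 also included C3, complement component 3. It had 0.68 and 0.54 in Cluster 1, against -1.51 and -1.60 in CDH1, a difference of 2.17 ± 0.0779 (adjusted p = 7.06e-09), and 3.74 with slide as a block. A second C3 probe gave 0.03. Paox, a polyamine oxidase, differed by 2.18 (1.68 by a second probe). Abcc3, an export pump, differed by 1.94 (0.42 by a second probe). The sialomucin gene Cd34 differed by 1.86, Mgp, an inhibitor of calcification, by 1.77, the transcription factor gene Cebpd by 1.73 (2.88 with slide as a block), and Dact2, which binds Dishevelled, by 1.69, though a second Dact2 probe gave -0.04. Xlr4b was higher by ratio (1.93) although its net sample signal was lower, 24.3 and 25.5 in Cluster 1, against 74.8 and 99.8 in CDH1. Its reference signal was 32.2 and 47.7 on the Cluster 1 arrays, against 370 and 462 on the CDH1 arrays.

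Lower in Cluster 1 by both estimates was the gene 1700012B09Rik, with 0.22 and 0.36, against 2.60 and 2.49 in CDH1 (difference -2.25 ± 0.147, adjusted p = 1.23e-06). Its reference channel was not well above background on either Cluster 1 array, and its call was lost with the processed signals (-1.23, adjusted p = 0.208). A second probe gave -1.31. Prl2c5 and Prl2c3, proliferin hormones whose near-identical sequences the probes may not separate, differed by -1.78 and -1.72. Il11, a cytokine of the interleukin 6 family, had 0.55 and 0.48 in Cluster 1, against 1.92 and 1.89 in CDH1 (difference -1.39, adjusted p = 4.39e-07, and -2.37 with slide as a block). Areg, a ligand of the epidermal growth factor receptor, differed by -1.16, and Id2, an inhibitor of bHLH factors, by -1.18 (-2.06 with slide as a block). Afp, alpha-fetoprotein, differed by -1.32 and Tspan2, a tetraspanin, by -1.42, with -0.26 by a second Tspan2 probe. Apcdd1, a Wnt inhibitor, and Pakap differed by -1.57 and -1.59 on the probe used. The other Apcdd1 probe gave 0.00014, and the other 3 Pakap probes gave between -0.08 and -0.01.

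**Figure D4:**
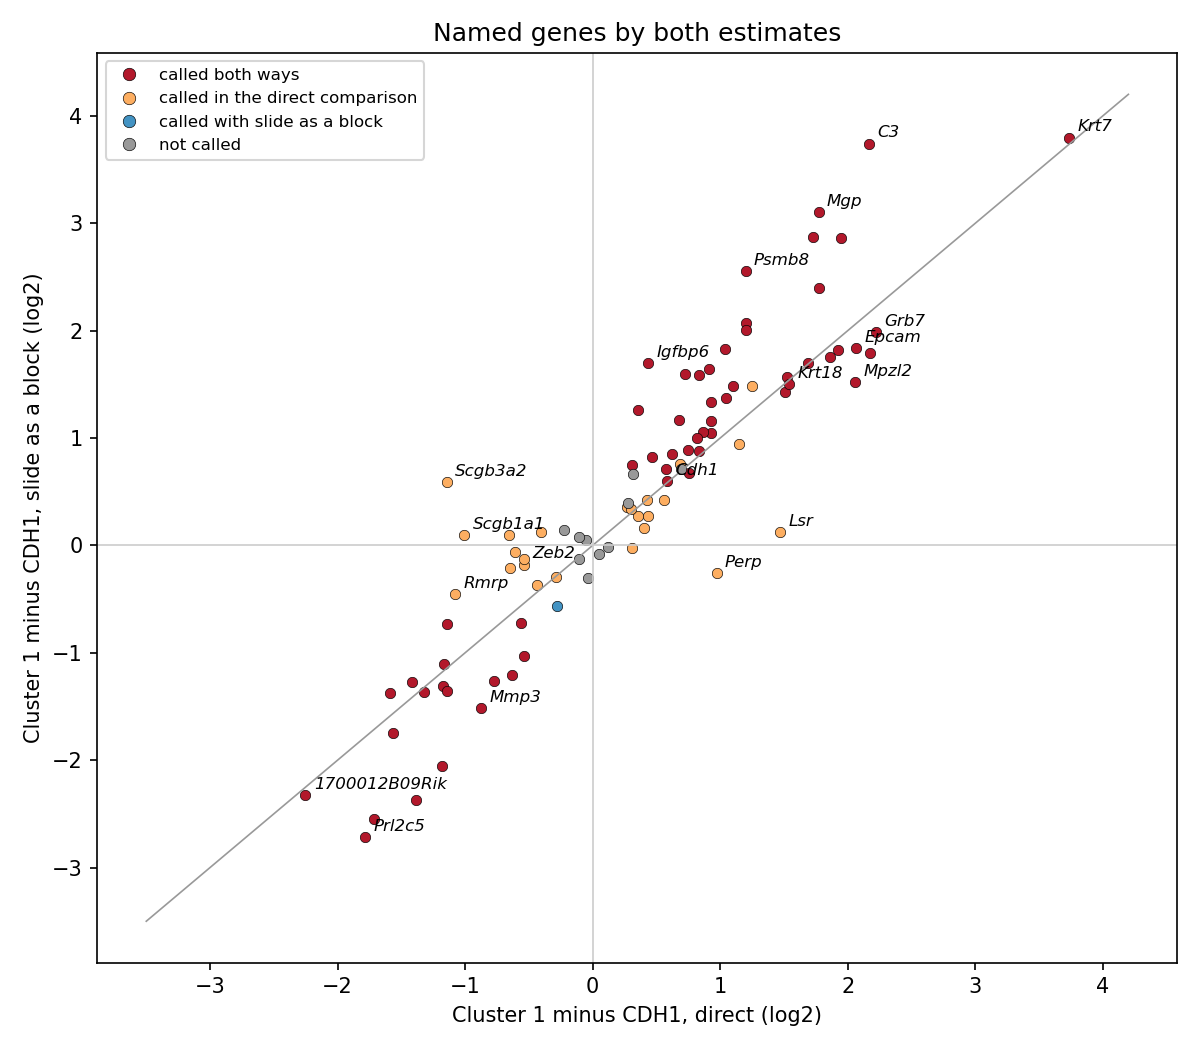
Cluster 1 minus CDH1 for the named genes, directly (horizontal axis, log2) and with slide as a block (vertical axis, log2), with the line of equal values and colours for how each gene was called. Krt7 lies at 3.74 and 3.80, while Lsr (1.47 and 0.12), Perp (0.97 and -0.26) and Scgb1a1 (-1.01 and 0.09) were called in the direct comparison alone.

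Among genes called directly and not with slide as a block, Scgb1a1 and Scgb3a2, secretoglobins of the airway, were lower in Cluster 1 by ratio (-1.01 and -1.15). Their reference channel differed between the slides by 4.01 and 2.75 on the log2 scale. Net sample signals of Scgb1a1 were 1500 and 1620 in Cluster 1, against 103 and 94.9 in CDH1, so its sample channel ran against its ratio. Rmrp, a noncoding RNA, differed by -1.08, and Nid1, a basement membrane linker, by 1.15, a call lost without Cluster 1 repeat A (adjusted p = 0.13) among others. The reference channel of Nid1 was lower on the Cluster 1 slide by 0.901, and in the sample channel alone Nid1 differed by -0.57 (adjusted p = 0.0615). Vldlr, a lipoprotein receptor, was called higher by a probe not well above background in Cluster 1, for which no fold is given. A second Vldlr probe, well above background on all 4 arrays, gave 0.22.

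The label of an epithelial tumour line was set against marker lists. Of 10 mammary carcinoma epithelium markers 10 and 9 were well above background in Cluster 1, and 9 and 9 in CDH1. The summed signal of the 8 measured on every array was 33800 and 32800 in Cluster 1, against 10100 and 10500 in CDH1, 6 of the 10 being higher and none lower. Of 7 mesenchymal markers Fn1 alone was called, and the summed signal of the 6 measured on every array was 12200 and 11300 in Cluster 1, against 15600 and 17600 in CDH1. None of 6 leukocyte markers was called, with summed signals of 1130 and 1030 in Cluster 1, against 831 and 807 in CDH1, and 5 or 6 of them were above background on each of these arrays. Endothelial markers summed to 801 and 787, against 409 and 378 in CDH1. By ratio Cdh5 and Kdr among them were lower in Cluster 1 (-0.66 and -0.41), neither being called with slide as a block (0.09 and 0.12), and their reference channels were higher on that slide by 1.04 and 1.13. Cdh5 was not well above background in the sample channel of either CDH1 array. Of 3 adipocyte markers Fabp4 was lower in Cluster 1 (-1.14). Of these 4 arrays Adipoq was well above background on both Cluster 1 arrays and no CDH1 array, and Plin1 on 1 CDH1 array. The 3 summed to 707 and 717 in Cluster 1, against 686 and 643 in CDH1. In the sample channel alone the difference of Fabp4 was 0.0328, and its reference channel was higher on the Cluster 1 slide by 0.841. Of 4 fibroblast markers Pdgfra (0.67) and Lum (0.68) were higher, with summed signals of 1290 and 1330, against 1240 and 1070 in CDH1. The call of Lum was lost with slide as a block (adjusted p = 0.0636), without Cluster 1 repeat A (adjusted p = 0.168) and without CDH1 repeat B (adjusted p = 0.222). None of the 3 milk genes tested was called. The part of other cells in the matrix and interferon results was not tested, and in such bulk RNA fewer cells of a type and less RNA per cell cannot be told apart.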

How the data were processed

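RNA was measured on 16 Agilent arrays (design 014868) with 2 colours. The deposited scanner files, made with Agilent Feature Extraction 9.5.3.1 per the file headers, hold spot intensity values for each channel and log10 ratios of the authors' processed signals. The deposited series matrix holds the linear ratio of processed sample over reference signals, with column medians of 0.9032 to 1.175, and was used as an alternative. Log2 ratios were computed here from the deposited intensity values. Spots marked by the software as outliers were set missing (545 to 909 on the 4 arrays compared). Background was corrected by normexp with an offset of 50, followed by loess with control spots at weight 0. Probes well above background on both arrays of at least 1 group were kept, 26918 of 41174, and a gene was represented by its brightest kept probe (18886 genes). limma 3.58.1 in R 4.3.3 fitted 8 group means over 16 arrays and was tested on simulated data. In the groups of that fit other than Cluster 1, CDH1 and their Puro vectors the sample was labelled with Cy3. Their arrays lay on other slides, and their ratios were turned to sample over reference. The share of probes well above background was 49.6% and 52.3% in Cluster 1, and 55.6% and 63.3% in CDH1. The number of arrays limits the precision. Probes were named by accession (23075), current symbol (6582), synonym (3077) or the file's name (8440), and probe positions are those of the scanner files (mm7).

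The genes and lists described were chosen with earlier results of these data known. Named genes were the 12 highest and 12 lowest called both directly and with slide as a block, ranked by the smaller difference, the 3 highest and 3 lowest called directly only, up to 3 called members of each list, and a fixed set of junction, repressor and matrix genes. A gene not well above background on both arrays of a group was to be given as a bound. A few genes are not reported here by name. Genes named beyond this rule were chosen after their values were seen. No batch other than slide was found in the files used.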

Additional observations from a re-analysis of the deposited data

How the results depend on the processing

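The limits are those of 2 arrays a group, of a comparison in which slide and group coincide, and of probes near background, for which a ratio depends on how background is treated. The direct comparison called 2953 genes, against 3124 in a fit of the 8 Cy5 arrays and 3301 in a fit of the 4 arrays compared. It called 894 with marked spots kept and 5299 in the sample channel alone, and between 1644 and 2954 when single arrays were left out, the lower counts coming without Cluster 1 repeat A and without CDH1 repeat B (1682). With slide as a block 3243 genes were called, against 1162 with marked spots kept and 2349 to 2793 without single arrays. The 2 Puro vector groups differed at 1910 genes, 528 with marked spots kept, 3191 in the sample channel alone and 1097 to 1799 without single arrays. Cluster 1 minus its Puro vector gave 1573 genes and 195 with marked spots kept, CDH1 minus its Puro vector 2753 and 1252, and CDH1 minus the Puro vector for Cluster 1 455 and 38, with 2099 in the sample channel alone and 120 to 441 without single arrays. Leaving the Puro vector for CDH1 out of the fit, chosen after seeing the data, gave 2954 direct calls, 2827 of them shared. The share of higher calls with slide as a block was 51.4%, but 38.8% with marked spots kept and 29.8% with median centring, which moved the median of all genes by -0.109. Between the Puro vector groups it was 48.6%, and 68.6% and 65.6% with these settings. The cause was not tested.

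Among Cluster 1, CDH1 and their Puro vectors the repeat letters share only a name: deviations of arrays with the same letter correlated at -0.0103 to 0.0681. In the other groups of the fit repeats A lay on 1 slide and repeats B on another. With the replicate block the 3 comparisons called 2941, 3266 and 1894 genes, and of 95 named genes 1 call was lost, that of Ctnna1. Of 84 named calls marked spots kept ended 39 and slide as a block 24.

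Directions turned for these genes. The probes of Vldlr, Snai2, Twist1, Esrp1, Crb3 and Cdh5 were well above background on neither array of at least 1 group. Those of Sec23a, Ctnnd1 and Col5a3 were so on only 1 of the 2 Cluster 1 arrays. The values of all these genes are therefore no measured folds. Each is given as Cluster 1 minus CDH1 on the log2 scale. In the sample channel alone they were Xlr4b (-0.72), Vldlr (-0.48), Nid1 (-0.57), Scgb3a2 (2.13), Scgb1a1 (4.10), Foxc2 (-0.27), Tcf7l2 (-1.04), Col5a3 (-0.30), Fabp4 (0.0328), Cdh5 (1.38), Kdr (1.78), Lum (-0.24), Pdgfra (-0.14), Snai2 (-0.76), Twist1 (-0.55), Crb3 (0.72), Vim (-0.78) and Sec23a (-0.90). With processed signals, and alike with the series matrix, they were Vldlr (-0.13), Foxc2 (-0.28), Lama5 (0.16), Cdh1 (-0.50), Snai2 (-1.45), Twist1 (-0.51), Esrp1 (0.16), Vim (-0.0778) and Igfbp4 (0.63). With slide as a block they were Scgb3a2 (0.59), Scgb1a1 (0.0944), Sec24a (-0.025), Perp (-0.26), Cdh5 (0.0947), Kdr (0.12), Snai1 (0.0499), Crb3 (0.14), Vim (-0.076), Sec23a (-0.0123) and Igfbp4 (0.0737). Marked spots kept turned Sec24a (-0.0343) and Vim (-0.0526), an offset of 10 turned Vim (-0.00653) and Igfbp4 (0.16), and median centring turned Crb3 (0.00835), Vim (-0.0944) and Sec23a (-0.16). Scaling the spread turned Vim (-0.12) and Tinagl1 (0.00931), and the mean over probes turned Igfbp4 (0.0233). The filter on all 4 arrays turned Col5a3 (-0.0403), for which it leaves another probe. Without single arrays of Cluster 1 or CDH1, Snai1 ranged from -0.17 to 0.0607 and Vim from -0.00437 to 0.0958, turning without Cluster 1 repeat A. Ctnnd1 ranged from -0.11 to 0.0261 and Sec23a from -0.0503 to 0.29, turning without CDH1 repeat B.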
